A study of Danio rerio with 6 samples.

Results

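Respiratory complex I, the NADH:ubiquinone oxidoreductase of the inner mitochondrial membrane, is described here through its nuclear genes in larval zebrafish hearts. Members were all rows of the deposited table whose gene symbol begins with nduf, followed by a, b, c, s, v or af and a digit, whatever the case. The rule found 47 of the 31701 genes in the table: 40 subunit genes and 7 assembly factor genes (*ndufaf*). The rule used symbols only and no measured value, but it was chosen with earlier results of these data known. Hearts came from mutant larvae and from their wild-type (WT) siblings, dissected between 57 and 59 hours post fertilization. The series title names Wwtr1, a transcriptional coactivator of the Hippo pathway, and the sources used here do not name the mutant allele. Each genotype had 3 RNA sequencing libraries, and each library was made from a pool of 23 whole hearts. Values are normalised read counts, and no value was divided by transcript length, so the levels of different genes are not compared.

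Complex I takes electrons from NADH, passes them through a flavin and a chain of iron-sulfur clusters to ubiquinone, and pumps protons as it does so. Its matrix arm carries out the electron transfer and its membrane arm the pumping. In vertebrates the core of the matrix arm is encoded in the nucleus and the core of the membrane arm on the mitochondrial chromosome, while many nuclear accessory subunits surround them. Assembly factors help to build and modify the modules and are absent from the finished enzyme. The beating heart relies on oxidative phosphorylation, and complex I is a main entry point for its electrons.

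The library totals ran from 21068538 to 21968397 in mutant and from 19187058 to 25227868 in WT hearts, and ribosomal RNA features took 40.4% to 43.9% of each. Transcripts of *wwtr1* stood at 128, 151 and 100 in mutant hearts, against 362, 416 and 471 in WT hearts, which gave a log2 difference of −1.72 (SE 0.155, limma adjusted p = 0.000251). All 13 cardiomyocyte marker genes listed for this tissue were tested, and none was at 0. In pooled hearts, fewer cells of a type and less RNA per cell cannot be told apart.

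No complex I gene passed the test between mutant and WT hearts. A test needed 10 or more in any 3 of the 6 libraries, which 44 of the 47 members met: 37 subunits and all 7 assembly factors, among 18901 genes in all. By limma with Benjamini-Hochberg adjustment over all genes tested, 0 of the 44 had an adjusted p under 0.05, and the lowest was 0.774, for *ndufa10*. Over all genes 0.037% passed, 0.0265% lower and 0.0106% higher in mutant hearts. At an unadjusted p under 0.05 the count was 0 lower and 0 higher as well, where 3.35% of all genes tested were lower and 3.25% were higher.

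The point estimates were small and mostly below 0. Of the 37 subunits tested, 31 had a log2 difference below 0, or 83.8%, where 50.5% of all genes did. Their median was −0.10, beside −0.0029 over all genes tested, and single subunits ran from −0.30 to 0.15. Every mutant value lay below every WT value in 3 subunits, *ndufs1*, *ndufb3* and *ndufb10*, or 8.11%, where 5.53% of all genes did so. The opposite separation, with mutant values all on top, was seen in 0 members and in 5.57% of all genes. These shares describe the set and carry no test of their own, since subunit genes share the same libraries.

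The measurement was tight enough to bound the differences. The standard error of a subunit's log2 difference had a median of 0.117 and ran from 0.0847 to 0.232. The 95% interval lay within 1.5-fold either way for 34 of the 37 subunits, where it did so for 46.5% of all genes. That share depends on the size of a difference as well as on its standard error, which had a median of 0.207 over all genes. The 3 subunits whose intervals reached past 1.5-fold were *ndufa9b*, *ndufs6* and *ndufa12*, and all 37 lay within 2-fold. These intervals are for single genes, not adjusted for their number.

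**Figure D1:**
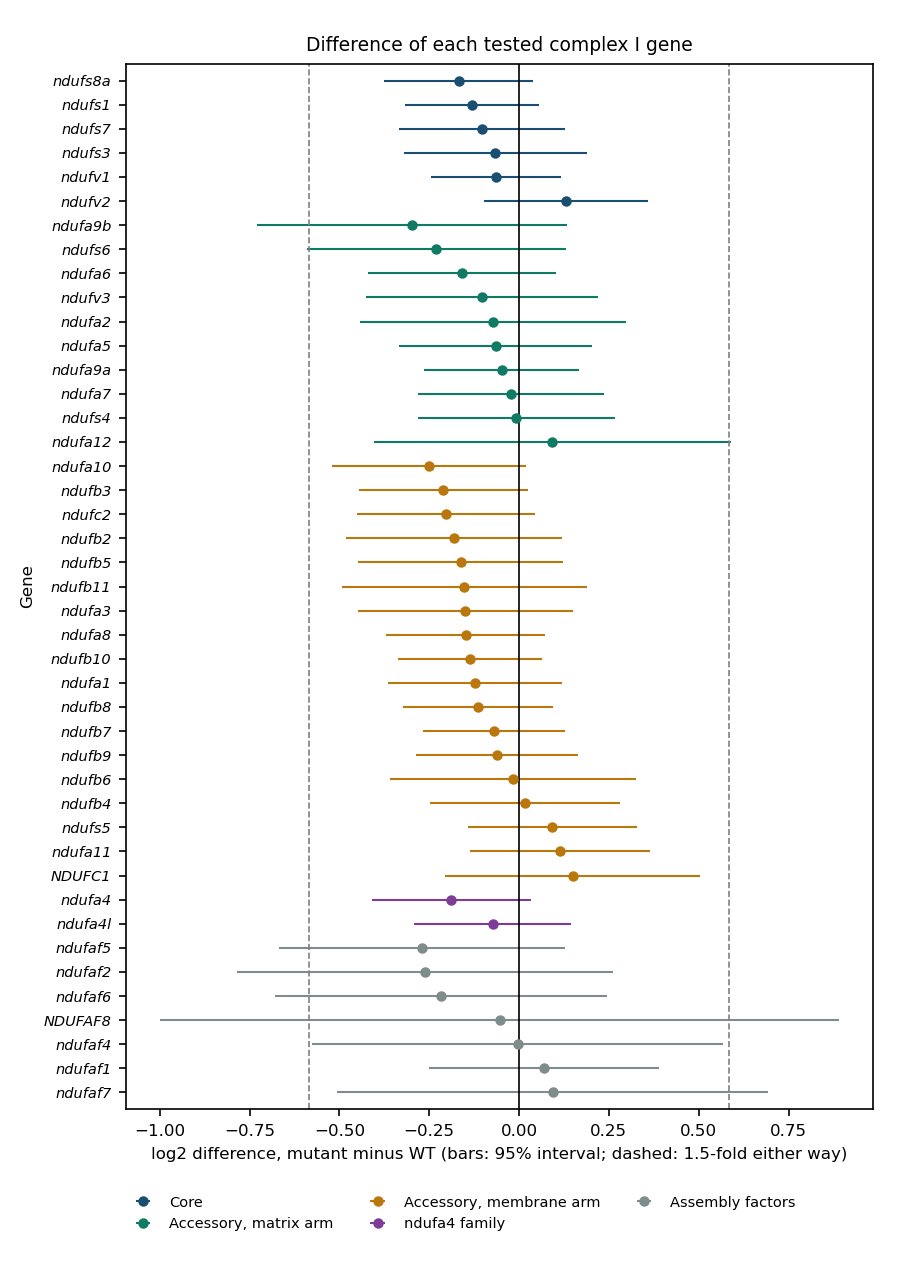
Log2 difference (mutant minus WT, horizontal axis) of 43 of the 44 tested complex I genes, with 95% intervals and with dashed lines at 1.5-fold either way; colours mark the group of each gene. Every interval drawn includes 0, and 30 of the 36 subunit points drawn lie left of 0.

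The shift of the subunits leaned on a library at either end. Their summed value was 15837, 14288 and 15247 in mutant replicates 1 to 3, against 17305, 15733 and 15472 in WT replicates 1 to 3. Mutant replicate 1 thus stood above WT replicates 2 and 3, and the groups overlapped. The means were 15124 ± 782 in mutant and 16170 ± 992 in WT hearts (SD, n = 3 each), a ratio of 0.935. WT replicate 1 held the highest value of 18 of the 37 subunits, or 48.6%, where it did so for 15.6% of all genes. In the deposited scaling, mutant replicate 2 held the lowest value of 16, or 43.2%, where it did so for 17.2% of all genes.

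The size of the shift depended on these libraries. Without WT replicate 1 the median log2 difference of the subunits was −0.05, with 27 of 37 below 0. Without mutant replicate 2 it was also −0.05, with 26 below 0. Without any other single library it lay between −0.14 and −0.09. With mutant replicate 2 and WT replicate 1 both left out, the median was −0.0090, 19 of 37 subunits were below 0 and the ratio of the summed values was 0.996. That setting was chosen after the data were seen and by the values of these same genes, so dropping the lowest mutant and the highest WT library shrinks the difference by construction. It leaves 2 libraries a genotype, and there too 0 members passed. In WT replicate 1, genes of the mitochondrial chromosome took 10.2% of the total, against 6.69% to 8.14% in the other 5 libraries. With totals made equal without these genes and ribosomal RNA, the median of the subunits was −0.10 and 31 of 37 were below 0. Their rescaled sum was 1290, 1139 and 1196 in mutant and 1542, 1125 and 1234 in WT replicates 1 to 3. WT replicate 2 was then the lowest library, just under mutant replicate 2, and WT replicate 1 stayed the highest. Which library stood lowest thus depended on the scaling. The factors of that rescaling nearly balance between the genotypes, and it moved the median over all genes by 0.0010. It could therefore hardly change a difference, and the part of the mitochondrial chromosome in the result was not tested.

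**Figure D2:**
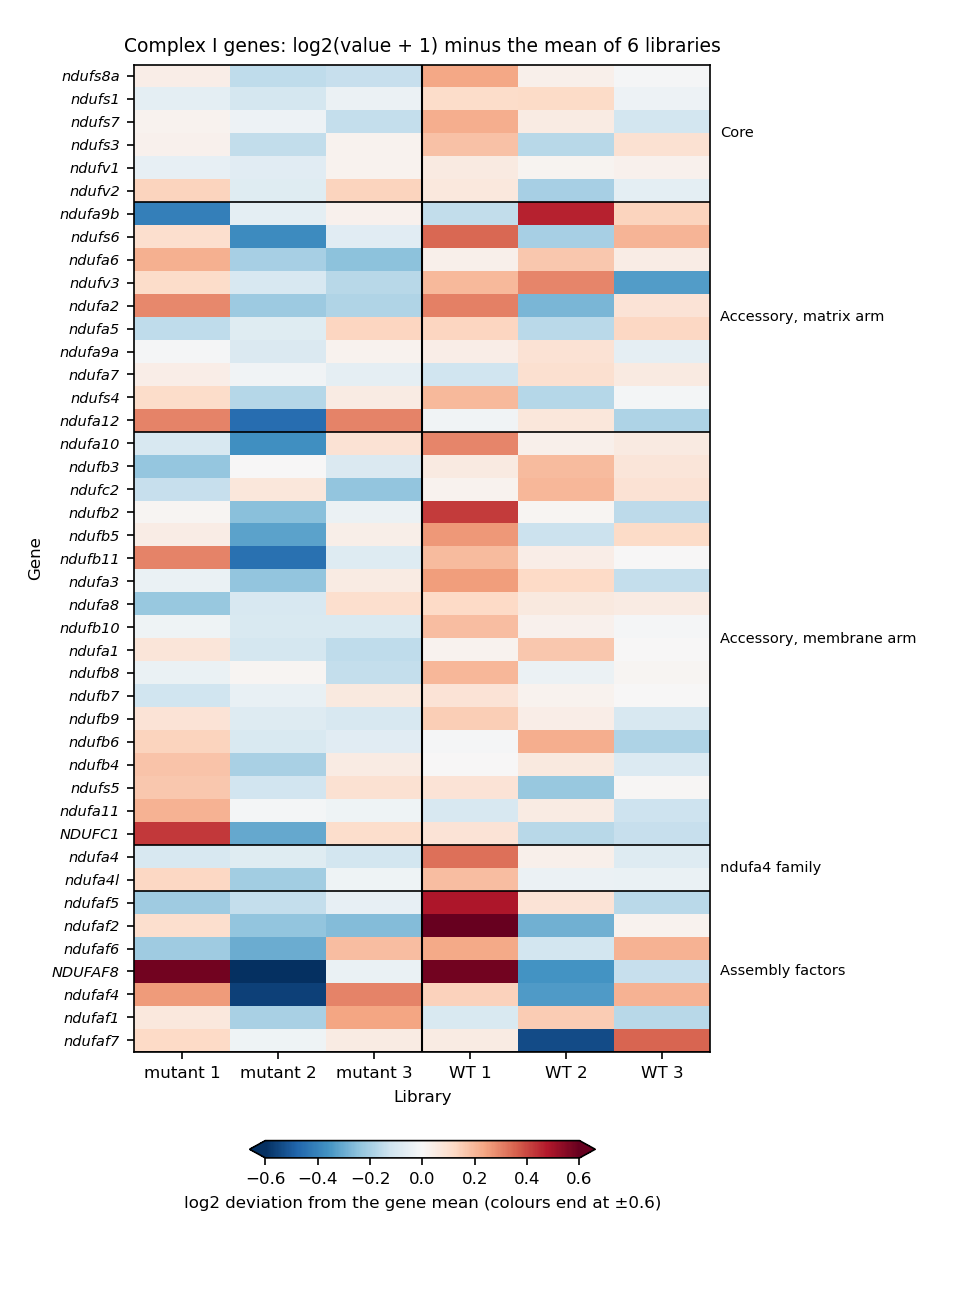
Log2 deviation of 43 tested complex I genes (rows) from its own mean over the 6 libraries (columns, mutant left of WT), with colours that end at 0.6 either way. In the deposited scaling, the column of mutant replicate 2 is mostly blue (mean deviation of the 37 subunits −0.15). That of WT replicate 1 is mostly red (0.13), while the other 4 lie near 0.

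Core subunits of the matrix arm are described first. Of the 7 tested, 6 had log2 differences below 0, with a median of −0.09. Ndufv1 binds NADH and the flavin, and its gene stood at 779, 770 and 818 in mutant hearts, against 836, 815 and 822 in WT hearts. The groups overlapped at a single mutant value, and the log2 difference was −0.06 (SE 0.0847, adjusted p = 0.953). Its partner gene *ndufv2*, for an iron-sulfur protein, had 523, 453 and 524 in mutant and 498, 415 and 458 in WT hearts. It was the core gene with a positive difference, 0.13 (SE 0.107, adjusted p = 0.896).

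The largest core subunit, an iron-sulfur protein of the matrix arm, is encoded by *ndufs1* (ENSDARG00000028546, chromosome 6, 12972981 to 12998416, plus strand). It had 801, 775 and 815 in mutant hearts, against 901, 904 and 817 in WT hearts. The highest mutant value stayed just under the lowest WT value, and the log2 difference was −0.13 (SE 0.0874, adjusted p = 0.857). The gene *ndufs8a*, for an iron-sulfur protein near the ubiquinone site, stood at 832, 729 and 735 in mutant and at 950, 827 and 806 in WT hearts. There mutant replicate 1 lay above WT replicates 2 and 3, and the log2 difference was −0.17 (SE 0.0974, adjusted p = 0.828).

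*ndufs7* and *ndufs3* encode core proteins of the module that reduces ubiquinone. *ndufs7* had 463, 446 and 413 in mutant and 531, 472 and 422 in WT hearts, with a log2 difference of −0.10. *ndufs3* had 318, 281 and 317 in mutant and 352, 278 and 332 in WT hearts, with a log2 difference of −0.07. In both the groups overlapped, and the adjusted p was 0.939 for *ndufs7* and 0.970 for *ndufs3*.

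**Figure D3:**
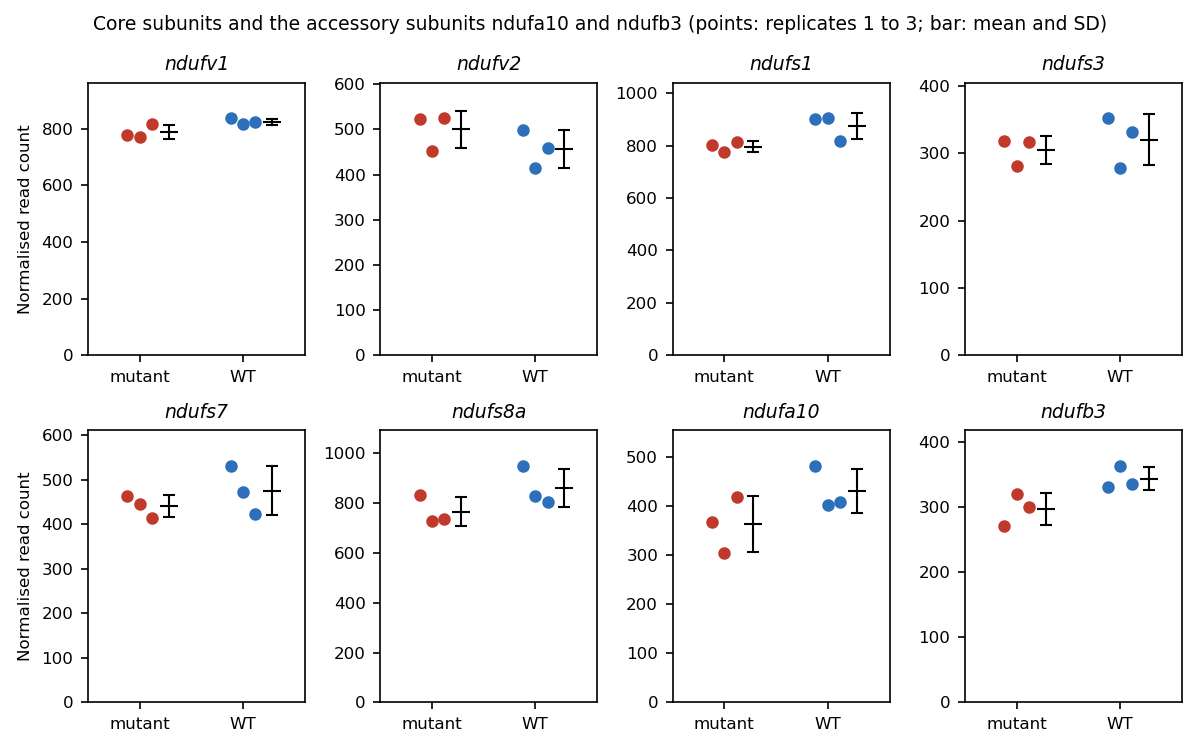
Normalised read count (vertical axis, from 0) of 6 core subunit genes and of *ndufa10* and *ndufb3*, with 3 replicates per genotype as points and the mean with its SD beside them. Points run from 305 (mutant replicate 2) to 482 (WT replicate 1) for *ndufa10*. The panels of *ndufs1* and *ndufb3* are the ones with no overlap between the groups.

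The duplicate *ndufs8b*, annotated as a polymorphic pseudogene, was near 0, at 1, 1 and 0 in mutant and 4, 1 and 2 in WT hearts. It was not tested, and at these values a difference was not detectable.

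Among accessory subunits of the matrix arm, 9 of 10 had log2 differences below 0, with a median of −0.07. The gene *ndufs6*, whose protein binds zinc, had 179, 128 and 159 in mutant hearts, against 212, 145 and 192 in WT hearts. Replicates 2 were the lowest of their groups, the groups overlapped, and the log2 difference was −0.23 (SE 0.169, adjusted p = 0.867). *ndufa6*, for a protein of the LYR family that docks an acyl carrier protein, stood at 546, 410 and 397 in mutant and at 482, 528 and 486 in WT hearts. Mutant replicate 1 was the highest of all 6 libraries there, and the log2 difference was −0.16 (adjusted p = 0.875).

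Ndufa9 holds the junction of the arms and has a pair of genes here. The longer, *ndufa9a*, spans 10144 bases on chromosome 25 and had a log2 difference of −0.05 (SE 0.101). The shorter, *ndufa9b*, spans 742 bases on chromosome 10. It had 64, 82 and 87 in mutant and 77, 118 and 94 in WT hearts, which gave a log2 difference of −0.30 (SE 0.202, adjusted p = 0.857), the lowest point estimate of the 37. Reads of similar copies may be split between such genes, and the sources used here do not state the counting options.

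The subunit gene with the lowest mean of those tested, *ndufa12*, had 80, 47 and 80 in mutant and 64, 68 and 57 in WT hearts. Its mutant values lay on either side of all WT values, and the log2 difference was 0.09 (SE 0.232). *ndufs4*, for a subunit whose loss causes Leigh syndrome in humans, had a log2 difference of −0.0077 (SE 0.128), at 272 ± 27.2 in mutant and 274 ± 35.2 in WT hearts (SD, n = 3 each).

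The membrane arm held the subunits with the smallest unadjusted p. Of its 18 accessory genes, 14 had log2 differences below 0, with a median of −0.13. *ndufa10*, for a kinase-like protein on the matrix side of this arm (ENSDARG00000013333, chromosome 9, 23929637 to 23936411, minus strand), had 368, 305 and 418 in mutant hearts, against 482, 402 and 409 in WT hearts. Mutant replicate 3 stood above WT replicates 2 and 3. The log2 difference was −0.25 (SE 0.126, 95% interval −0.52 to 0.02, adjusted p = 0.774).

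*ndufb3* (ENSDARG00000075709, chromosome 9, 708005 to 711306, minus strand) encodes a small single-pass membrane subunit. It had 271, 319 and 300 in mutant and 331, 363 and 335 in WT hearts, without overlap. The log2 difference was −0.21 (SE 0.110, 95% interval −0.45 to 0.02, adjusted p = 0.793). *ndufc2*, for another membrane subunit, had 280, 324 and 262 in mutant and 313, 354 and 328 in WT hearts. Mutant replicate 2 lay above WT replicate 1, and the log2 difference was −0.20 (SE 0.116, adjusted p = 0.824). Both genes were thus not at their lowest in mutant replicate 2, unlike many of the others.

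*ndufb10* (ENSDARG00000028889, chromosome 3, 18255396 to 18261228, minus strand) encodes a cysteine-rich subunit of the same arm. It had 596, 570 and 569 in mutant and 690, 618 and 603 in WT hearts. The groups did not overlap, yet the nearest values, 596 and 603, were close, and the log2 difference was −0.14 (SE 0.0936, adjusted p = 0.857). *ndufa8*, which encodes a cysteine-rich protein of the intermembrane space, had 440, 482 and 552 in mutant and 559, 536 and 533 in WT hearts. Its log2 difference was −0.15 (adjusted p = 0.861), and mutant replicate 3 reached into the WT range.

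The membrane arm genes with positive differences were *NDUFC1* (0.15), *ndufa11* (0.11), *ndufs5* (0.09) and *ndufb4* (0.02), with adjusted p between 0.936 and 0.993. *NDUFC1* had 279, 168 and 224 in mutant and 220, 185 and 189 in WT hearts, so the mutant libraries held both its highest and its lowest value.

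The *ndufa4* genes match the rule by name, but the protein has been reassigned in mammals to cytochrome c oxidase, complex IV, and the deposited annotation calls the product of *ndufa4* a cytochrome c oxidase subunit. *ndufa4* had 957, 974 and 948 in mutant hearts, against 1289, 1045 and 971 in WT hearts. The mutant values were even, WT replicate 1 stood alone, and the log2 difference was −0.19 (SE 0.103, adjusted p = 0.810). *ndufa4l* had 1196, 951 and 1079 in mutant and 1248, 1071 and 1069 in WT hearts, with a log2 difference of −0.07 (SE 0.102, adjusted p = 0.954).

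The relative known in mammals for its induction by low oxygen, Ndufa4l2, was barely detected. *NDUFA4L2* had 0, 5 and 1 in mutant and 2, 1 and 0 in WT hearts. *ndufa4l2a* had 3, 1 and 0 in mutant and 4, 1 and 4 in WT hearts. Neither was tested, and at these values a difference was not detectable. The median of the subunits without this family was −0.10.

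The 7 assembly factors were measured less precisely, with values of 9 to 197. Their log2 differences ran from −0.27 to 0.09 with a median of −0.05, and 5 were below 0. The median standard error was 0.244, and the 95% interval lay within 1.5-fold for 2 of them and within 2-fold for all 7. Their summed value was 507, 419 and 532 in mutant and 587, 476 and 494 in WT hearts, with overlap. Replicate 2 was the lowest of each group, and the ratio of the means was 0.936. The sign of their median depended on single libraries, with 0.13 without mutant replicate 2, 0.04 without WT replicate 1 and 0.16 without both.

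*ndufaf5*, known in human cells as the enzyme that hydroxylates an arginine of the core subunit NDUFS7, had 83, 87 and 93 in mutant and 135, 102 and 86 in WT hearts. WT replicate 3 lay within the mutant range, and the log2 difference was −0.27 (SE 0.186, adjusted p = 0.859). Its partner *NDUFAF8* had 22, 9 and 14 in mutant and 22, 11 and 13 in WT hearts. The ranges overlapped almost wholly, and its 95% interval, −0.999 to 0.89, was the widest.

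*ndufaf2*, a chaperone that resembles the accessory subunit Ndufa12, had 71, 56 and 55 in mutant and 105, 54 and 67 in WT hearts, with a log2 difference of −0.26 (SE 0.244). *ndufaf6*, which acts early in assembly, had 52, 49 and 69 in mutant and 71, 56 and 70 in WT hearts, with a log2 difference of −0.22 (SE 0.216). For *ndufaf2* the estimate rested on WT replicate 1, since it was 0.0023 without that library (0.05 when mutant replicate 2 was left out too). For *ndufaf6* it stayed below 0 in every setting tried.

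Of the remaining factors, *ndufaf1* encodes a member of the assembly complex that builds the membrane arm. It had 175, 146 and 197 in mutant and 157, 186 and 149 in WT hearts, with a log2 difference of 0.07. *ndufaf4*, whose protein acts on the ubiquinone module, had 64, 36 and 66 in mutant and 59, 42 and 62 in WT hearts, with a log2 difference of −0.0042. *ndufaf7*, for a protein arginine methyltransferase, had 40, 36 and 38 in mutant and 38, 25 and 47 in WT hearts, with a log2 difference of 0.09. In all 3 the ranges overlapped broadly, and the adjusted p was 0.974 or above.

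Complex I genes outside the symbol pattern did not pass the test either. The mitochondrial acyl carrier protein, which sits in both arms, has a pair of genes. *ndufab1a* had 386, 385 and 402 in mutant and 470, 379 and 460 in WT hearts, with a log2 difference of −0.15 (SE 0.109, adjusted p = 0.865). *ndufab1b* had 357, 306 and 371 in mutant and 384, 353 and 300 in WT hearts, with a log2 difference of −0.0016. Of 12 further assembly factors listed, 9 had a row, all were tested and none passed.

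In that list *foxred1*, for a flavin-dependent assembly factor, had 90, 104 and 131 in mutant hearts, against 154, 168 and 159 in WT hearts. The groups did not overlap, and the log2 difference was −0.58 (SE 0.161, unadjusted p = 0.00286, adjusted p = 0.391). *ecsit*, a partner of Ndufaf1, had 138, 135 and 131 in mutant and 123, 100 and 128 in WT hearts, and here every mutant value was higher, with a log2 difference of 0.21 (adjusted p = 0.866). *timmdc1* lay the same way, at 131, 119 and 118 in mutant and 102, 102 and 115 in WT hearts (adjusted p = 0.867). Of the 9 factors tested, 1 had every mutant value below every WT value and 2 had the opposite, where 5.53% and 5.57% of all genes did so. At an unadjusted p under 0.05, 1 was lower and 0 higher, beside 3.35% and 3.25% of all genes. Factors of this list therefore differed in sign among themselves.

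Other respiratory genes, measured in the same libraries, leaned the same way. Of 55 tested nuclear genes of complexes II to V, 51 had log2 differences below 0, with a median of −0.14, and 6 were lower at an unadjusted p under 0.05. Over all genes tested, 50.5% were below 0 and 3.35% lower at that p. The corresponding counts for complex I subunits were 31 of 37 and 0. In 16 of the 55 genes, or 29.1%, every mutant value lay below every WT value. That held for 3 of the 37 complex I subunits, or 8.11%, and for 5.53% of all genes. The 75 mitochondrial ribosomal protein genes had a median of −0.15, with 62 below 0 and 9 lower at an unadjusted p under 0.05. None of these genes passed over all genes tested. Of the 55 genes of complexes II to V, 23 were lowest in mutant replicate 2, or 41.8%, beside 17.2% of all genes. In WT replicate 1, 38 of them were highest, or 69.1%, beside 15.6% of all genes. With mutant replicate 2 and WT replicate 1 left out, the median for complexes II to V was −0.05. Whether complex I differs from these sets was not tested.

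The 7 complex I subunits encoded on the mitochondrial chromosome had a median log2 difference of −0.25, with 7 of 7 below 0 and 5 lower at an unadjusted p under 0.05, beside the same 50.5% and 3.35% over all genes. Their summed value was 50574, 56581 and 50279 in mutant and 69323, 59554 and 57975 in WT hearts, without overlap, and WT replicate 1 was again the highest. In 6 of the 7 every mutant value lay below every WT value, beside 5.53% of all genes. For example, *mt-nd4* had 9040, 10121 and 8734 in mutant and 12504, 10825 and 10706 in WT hearts (adjusted p = 0.563).

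Of 20 tested regulators of mitochondrial gene expression and biogenesis, none passed and the median log2 difference was −0.05. Differences were below 0 in 12 of them, beside 50.5% of all genes. By limma at an unadjusted p under 0.05, 1 was lower and 0 higher, beside 3.35% and 3.25% of all genes. Every mutant value lay below every WT value in 2 and above in 0, beside 5.53% and 5.57% of all genes. *gabpb1*, a subunit of the factor NRF2/GABP known to bind respiratory gene promoters, had 31, 28 and 45 in mutant and 64, 56 and 59 in WT hearts, with a log2 difference of −0.79 (SE 0.248, unadjusted p = 0.00616, adjusted p = 0.496). *gabpb2b*, from the same gene family, pointed the other way, at 153, 140 and 120 in mutant and 147, 101 and 90 in WT hearts, with a log2 difference of 0.31 (SE 0.187, adjusted p = 0.841). *esrrga*, for an estrogen-related receptor, had 581, 646 and 544 in mutant and 588, 498 and 515 in WT hearts, with a log2 difference of 0.15 (adjusted p = 0.865). In both of these the groups overlapped.

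Markers of cell types were read beside these values. The summed level of the 13 cardiomyocyte markers was 299075, 309251 and 293532 in mutant and 344967, 296114 and 286700 in WT hearts. WT replicate 1 was the highest in 10 of the 13, where it was so for 15.6% of all genes. All 10 endocardial markers were tested, 9 with a difference above 0, and their sum ranged from 17986 to 19596 in mutant and from 15602 to 17201 in WT hearts. By limma, 3 were higher and 0 lower at an unadjusted p under 0.05, beside 3.25% and 3.35% of all genes. Every mutant value lay above every WT value in 5 of them, where 5.57% of all genes did so. Of 12 red cell markers 9 had a row, all 9 with a difference above 0. Their sum ranged from 99668 to 172043 in mutant and from 106360 to 120330 in WT hearts. At an unadjusted p under 0.05 by limma, 3 of the 9 were higher and 0 lower, beside 3.25% and 3.35% of all genes. Every mutant value lay above every WT value in 1 of them, beside 5.57% of all genes. Of 13 tested liver and yolk markers, 10 were lower and 2 higher at an unadjusted p under 0.05, beside 3.35% and 3.25% of all genes. WT replicate 2 held the highest value of 10 of the 13 and mutant replicate 2 the lowest of 9, beside 16.5% and 17.2% of all genes. Every mutant value lay below every WT value in 2 of them, or 15.4%, beside 5.53% of all genes. The list's sum ranged from 13289 to 20857 in mutant and from 17686 to 30402 in WT hearts. Cartilage markers, like the subunits, stood high in WT replicate 1, which held the highest value of 5 of the 6 tested, beside the same 15.6%. Their sum was 6851, 5559 and 4597 in mutant and 8628, 5089 and 4515 in WT hearts. WT replicate 2 was the highest in 15 of 16 skeletal muscle rows, where it was so for 16.5% of all genes. The sum of these rows ranged from 48049 to 67442 in mutant and from 47119 to 84821 in WT hearts. The sum of the 12 skin markers ranged from 75376 to 90265 in mutant and from 64529 to 98223 in WT hearts. That of 9 neuronal markers ranged from 965 to 1246 in mutant and from 1185 to 1270 in WT hearts. At the same unadjusted p, 1 cartilage and 1 neuronal marker were lower and 0 higher. The cardiomyocyte, skeletal muscle and skin lists had 0 either way. None of the markers with a row in these 8 lists stood at 0 throughout. The part of these shifts in the complex I values was not tested.

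**Figure D4:**
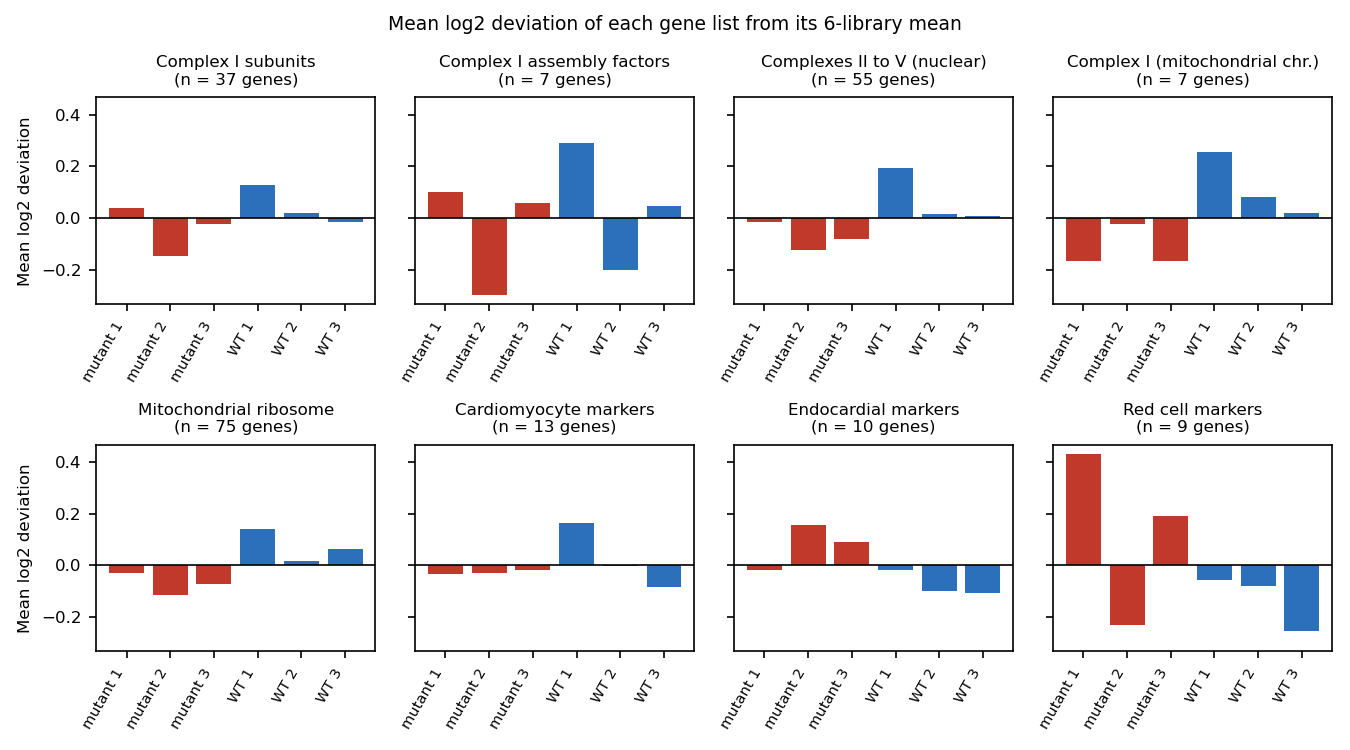
Mean log2 deviation of 8 gene lists (vertical axis) in each library from the list's mean over the 6 libraries, mutant libraries left of WT libraries. WT replicate 1 is the highest bar for the complex I subunits (0.13), assembly factors (0.29), complexes II to V (0.20) and cardiomyocyte markers (0.17). The same holds for the mitochondrially encoded subunits (0.26) and the mitochondrial ribosome (0.14). Mutant replicate 2 is the lowest bar for the complex I subunits (−0.15), assembly factors (−0.30), complexes II to V (−0.12) and the mitochondrial ribosome (−0.12). The endocardial and red cell markers take other courses.

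The members lie on 21 chromosomes, with at most 4 on any of them and 0 on chromosome 22, which holds *wwtr1*. Of the 40 subunit genes, 36 carry the term oxidative phosphorylation in the deposited pathway annotation, and none of the 7 assembly factors does. Another gene overlaps 9 of the 44 tested members, on the opposite strand for 6 of them, including *ndufa7*, *ndufa3*, *ndufaf1* and *ndufaf5*. Reads of such pairs may be mixed, and the sources used here do not say whether counting used strand.

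**Figure D5:**
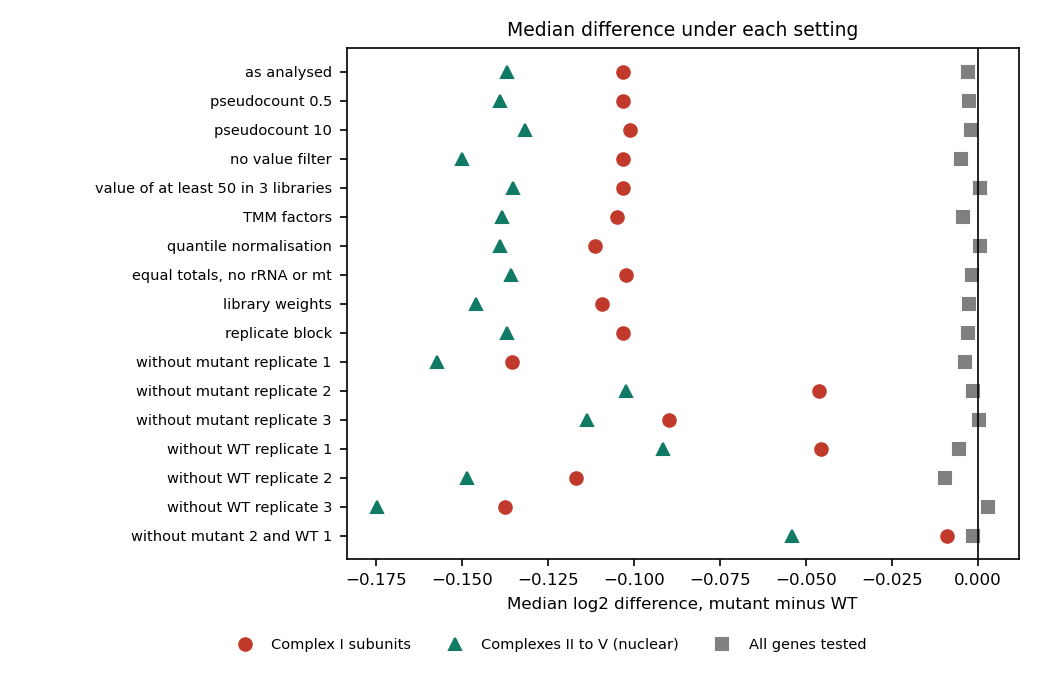
Median log2 difference (mutant minus WT, horizontal axis) of complex I subunits, of nuclear genes of complexes II to V and of all genes tested, under each setting. The median of the subunits is −0.10 as analysed, −0.05 without mutant replicate 2 or WT replicate 1, and −0.0090 without both, the lowest row.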

How the data were processed

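Per the labels' protocols, 6.5 ng of total RNA per pool entered the Pico Input Mammalian preparation and was sequenced as single reads of 75 nt. Per the submitters' processing notes, STAR 2.4.0a and featureCounts 1.4.5-p1 were used with GRCz10, the assembly of the coordinates. The deposited values are a score: read counts that the authors scaled between libraries and rounded, since 7, 5 and 12 whole numbers between 1 and 100 are skipped in mutant replicates 2 and 3 and WT replicate 2. Count models were therefore not used, and whole reads were not recovered.

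Values were analysed as log2(value + 1), which understates changes of low genes, for the 18901 genes that had 10 or more in any 3 libraries. Genotypes were compared with limma 3.58.1 (R 4.3.3), its variance trend on, and p-values were adjusted over all of these genes by Benjamini-Hochberg. The fit was tested on simulated data with larger changes than those estimated for the members, and with independent noise in each gene. The changed genes lay above the level of the lowest assembly factors. That test does not cover small differences or a shift that many genes share in a library. The design text calls the 3 pools per genotype biological replicates.

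The members and lists were chosen with earlier results of these data known. Values in every library are given for core subunits, assembly factors, *ndufa4* relatives, untested members, the 8 other subunits with the smallest unadjusted p, the subunit of lowest mean, and up to 3 genes of other lists. *NDUFC1*, *ndufs4*, *ndufs5*, *ndufa9a*, *ndufa11* and *ndufb4* were named after their values were seen. The values of 1 core subunit gene are not reported here; it remains in the counts, medians and sums. Of the members, 46 had an entry in the gene name table. No promoter or protein sequence was used here, so the planned motif search was not run. The rows of *ndufa13*, *ndufb1* and *ndufaf3* were not analysed here, as no row carries these symbols.

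The alternatives were pseudocounts, value filters, TMM factors (own implementation), quantile normalisation, equal totals, library weights, a replicate block and each library left out. The equal totals were taken without ribosomal RNA and the mitochondrial chromosome. Leaving out mutant replicate 2 with WT replicate 1, and leaving out the *ndufa4* family, were added after the data were seen.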

Additional observations from a re-analysis of the deposited data

How the results depend on the processing

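No complex I gene passed in any of the 16 refits; the lowest adjusted p was 0.621, for *ndufs6*, without WT replicate 2. The median log2 difference of the subunits lay between −0.14 and −0.05 with each library left out in turn. It lay between −0.11 and −0.10 under the settings that kept all 6 libraries and was −0.10 without the *ndufa4* family. Of these settings, the replicate block could not move the median and the equal totals hardly could. With each library left out, 26 to 34 of 37 subunits were below 0 and the ratio of summed subunit values was 0.913 to 0.969. The median of the assembly factors then ran from −0.25 to 0.13. By limma at an unadjusted p under 0.05, 0 to 4 members were lower and 0 to 1 higher. Over all genes 3.35% were lower and 3.25% higher in the fit as analysed, and the shares in these refits are not given here.

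With mutant replicate 2 and WT replicate 1 both left out, a setting added after the data were seen, the median of the subunits was −0.0090, 19 of 37 were below 0 and the ratio was 0.996. At an unadjusted p under 0.05 by limma, 1 member was then lower (*ndufc2*) and 2 higher (*ndufv2* and *NDUFC1*). Over all genes 3.35% were lower and 3.25% higher as analysed, and the shares in this refit are not given. These 3 genes are therefore not read as a result. These libraries were picked for the members' own values, which by construction shrinks the difference; *wwtr1* still passed, at −1.96 (adjusted p = 0.00324). The direction reversed there for *ndufa4l* (0.0863), *ndufaf2* (0.0542), *ndufaf4* (0.342), *NDUFAF8* (0.519), *ndufs3* (0.0634) and *ndufs6* (0.0157, against −0.389 without WT replicate 2), while *ndufa12* stood at 0.357.

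With a single library left out, the direction also reversed within the ranges −0.0339 to 0.344 (*ndufa12*), −0.153 to 0.0123 (*ndufa4l*), −0.0303 to 0.185 (*ndufaf1*), −0.471 to 0.00231 (*ndufaf2*), −0.176 to 0.274 (*ndufaf4*), −0.151 to 0.291 (*ndufaf7*), −0.358 to 0.243 (*NDUFAF8*) and −0.165 to 0.00487 (*ndufs3*). *ndufaf4* reversed with a pseudocount of 10 (0.000685), quantile normalisation (0.0274) and library weights (0.00904). The cause of the single-library changes was not tested.

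The replicate numbers were not taken as pairs, since the labels do not state a pairing. Deviations of same-numbered libraries had correlations of 0.0217, −0.0224 and −0.0178, and those of differently numbered libraries −0.0492 to 0.0611. Such values near 0 cannot exclude a pairing. With a replicate block 0 members passed. The median of the subunits stayed at −0.10, since a block cannot change a log2 difference in this balanced design. Over all genes 7 passed as analysed, 15 with the block, 73 with equal totals, 43 without WT replicate 2 and 11 without WT replicate 1. The summed ratio takes no filter, pseudocount, quantile, weight or block setting. Low values limit what could be detected in the assembly factors.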
